A study of Mus musculus with 18 samples.

Results

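Toll-like receptor adaptors and kinases are the signalling proteins that stand between the receptors and the transcription factors they activate. The group described here holds 10 genes chosen by name: the adaptors Myd88, Ticam1 and Ticam2, the kinases Irak1, Irak2, Irak3 and Irak4, the ubiquitin ligases Traf6 and Traf3, and the kinase Map3k8. Each was read from a probe set annotated with its symbol alone, and 8 of the 10 were measured, among 19938 genes in all. Irak4 and Traf3 were not listed in the annotation and were not analysed here. RNA came from mouse dendritic cells that were grown from bone marrow in GM-CSF (20 ng/ml, 10 days), and 18 arrays were hybridised. Wild-type cells were compared with cells lacking Ubc9, which attaches the small protein SUMO to other proteins, and both genotypes had 100 nM 4-hydroxytamoxifen added on day 6. The labels do not say what deletes Ubc9, nor in how many cells. Each genotype was studied without stimulation and after 1 h or 6 h of lipopolysaccharide (LPS, a bacterial cell wall component) at 10 ng/ml, with 3 arrays in each of the 6 groups. The genotypes stand as labelled.

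LPS is sensed by Tlr4, which signals along a MyD88 arm and a TRIF arm. In the MyD88 arm, the adaptor Myd88 gathers the kinases Irak4, Irak1 and Irak2 on a shared scaffold, and Traf6 then builds ubiquitin chains that activate NF-kB and the MAP kinases. Irak3, also called IRAK-M, is a family member known to restrain this arm in macrophages and dendritic cells. In the TRIF arm, Ticam2 (TRAM) joins Ticam1 (TRIF) to receptors in endosomes, and Traf3 leads on to interferon production. Map3k8, also called Tpl2, is the kinase that starts the ERK branch of the MAP kinases.

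The promoters of Myd88 and of the kinases Irak1, Irak2 and Irak3 are shown so that the DNA at these genes can be seen beside their values, and the windows of Map3k8 and Ticam2 were not used here. The windows come from RefSeq (assembly GRCm38.p6) and run 5′ to 3′ on the gene's strand, from 250 bases before to 50 bases after the annotated start. Capitals mark matches on either strand to 1 of 3 motifs: the NF-kB consensus, the interferon-stimulated response element and AP-1 (TGANTCA). Myd88 lies on the minus strand at chr9:119339969-119340268, Irak1 on the minus strand at chrX:74023872-74024171, Irak2 on the plus strand at chr6:113638217-113638516 and Irak3 on the minus strand at chr10:120201548-120201847.
Myd88: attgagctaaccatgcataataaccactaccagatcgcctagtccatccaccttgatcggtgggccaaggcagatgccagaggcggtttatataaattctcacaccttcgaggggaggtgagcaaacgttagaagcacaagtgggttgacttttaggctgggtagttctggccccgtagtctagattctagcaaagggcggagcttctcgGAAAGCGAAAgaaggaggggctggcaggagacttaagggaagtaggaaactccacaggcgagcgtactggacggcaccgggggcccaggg
Irak1: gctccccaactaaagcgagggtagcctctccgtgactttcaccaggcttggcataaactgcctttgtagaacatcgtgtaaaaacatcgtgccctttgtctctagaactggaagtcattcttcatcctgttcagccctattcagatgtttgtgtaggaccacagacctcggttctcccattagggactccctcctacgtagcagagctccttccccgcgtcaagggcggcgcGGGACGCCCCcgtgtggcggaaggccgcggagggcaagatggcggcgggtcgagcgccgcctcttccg
Irak2: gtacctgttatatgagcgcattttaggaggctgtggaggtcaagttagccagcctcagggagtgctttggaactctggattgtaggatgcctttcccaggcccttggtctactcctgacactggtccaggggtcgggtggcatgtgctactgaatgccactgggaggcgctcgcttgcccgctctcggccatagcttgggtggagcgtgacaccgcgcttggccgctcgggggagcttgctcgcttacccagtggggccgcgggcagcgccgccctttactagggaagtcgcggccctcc
Irak3: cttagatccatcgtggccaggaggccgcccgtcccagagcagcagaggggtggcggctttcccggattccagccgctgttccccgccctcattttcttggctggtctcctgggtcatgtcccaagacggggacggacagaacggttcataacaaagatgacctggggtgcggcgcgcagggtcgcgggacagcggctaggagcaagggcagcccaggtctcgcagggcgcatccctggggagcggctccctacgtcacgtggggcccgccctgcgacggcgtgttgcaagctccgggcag
The Myd88 window held a match to the interferon-stimulated response element, GAAAGCGAAA, starting 40 bases before the start. Such a match was present in 3.44% of all 32851 RefSeq promoter windows of this length. The Irak1 window held a match to the NF-kB consensus, GGGACGCCCC, starting 18 bases before the start and read on both strands at the same place, and 8.46% of windows hold such a match. No match to any of the 3 motifs was found in the windows of Irak2, Irak3 (at both of its listed starts), Ticam1, Traf6 or Irak4, and AP-1 matches are in 7.81% of all windows. The Traf3 window had an NF-kB match, GGGGATTTCC, at chr12:111166120-111166419 on the plus strand. A match is a stretch of letters and was not tested for binding.

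The genotypes differed in 4 of the 8 measured genes after 6 h of LPS. Myd88, Irak2 and Map3k8 were higher in knockout cells and Irak1 was lower, while Irak3, Traf6, Ticam1 and Ticam2 were not called. Without LPS and at 1 h no member was called between the genotypes. In both genotypes, 6 h of LPS raised Irak3, Traf6 and Map3k8. Ticam1 was called lower in both, but these 2 calls were lost under several settings. In knockout cells, Myd88 and Irak2 were also called higher and Irak1 lower. The difference between the genotypes' responses was called for Irak2 and Irak1 and not for Myd88 (limma interaction, adjusted p = 0.066). With replicate numbers as blocks within genotype, the same test called Myd88 too (adjusted p = 0.003). The Irak1 call was lost under 4 of 11 other settings. The signals are log2 values as deposited, and "called" means an adjusted p under 0.05 (limma, Benjamini-Hochberg over all 19938 genes). The plot of every array's signal gives the values behind these statements.

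**Figure D1:**
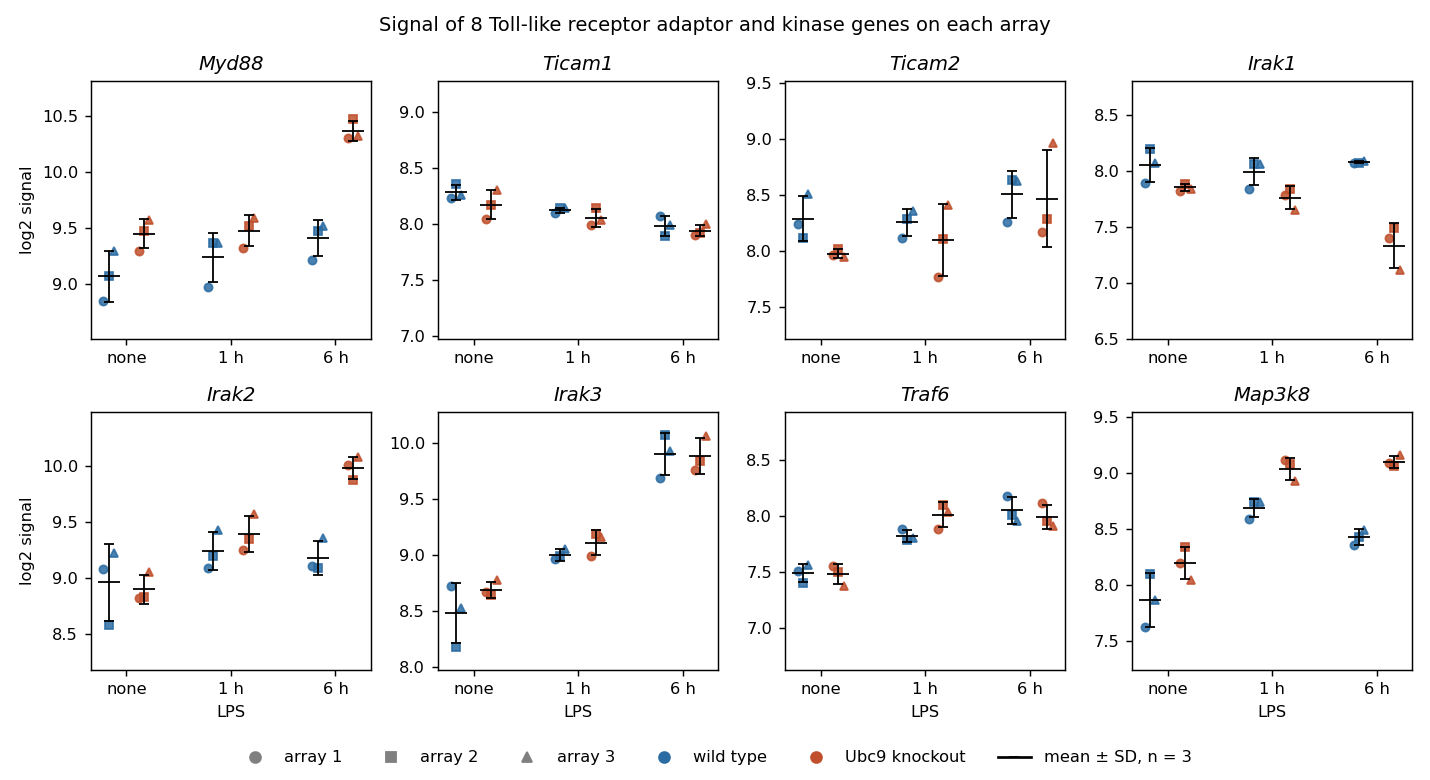
Log2 signal of the 8 measured genes on each of the 18 arrays (points; the shape gives the replicate number), by LPS time and genotype, with mean ± SD (n = 3 per group); the panels span equal ranges from different starting values, so levels are to be compared within a gene. The knockout arrays at 6 h lie above all other arrays for Myd88 (10.31 to 10.48) and Irak2 (9.87 to 10.08) and below all others for Irak1 (7.11 to 7.49). Against the wild-type arrays at 6 h alone, they are fully apart for 44.3% of all genes.

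Across all genes, the first principal component held 51.3% of the variance, and the knockout arrays at 6 h lay at 54.7 to 78.1 on it against −36.1 to 21.8 for all others. In every condition, array 3 had the highest position among the knockout arrays. The 75th percentile of signal over genes was lower for knockout cells at 6 h (7.43 to 7.63) than for any other array (7.72 to 7.85), so values centred on that percentile are given beside results that it changes. The arrays carried the dendritic cell and antigen presentation genes Itgax (group means 10.68 to 11.17), Cd74 (11.44 to 11.73) and H2-Aa (11.40 to 11.81). The dendritic cell genes Flt3 (5.0 to 6.19) and Zbtb46 (4.98 to 5.41) lay near the median signal of all genes, which was 5.5. Macrophage markers were present too: the mean of 10 of the 11 listed markers was 8.74 to 9.21 on wild-type arrays and 9.0 to 10.2 on knockout arrays. In the genotype comparison, 2 of these 10 were called higher without LPS, 1 higher and 1 lower at 1 h, and 3 higher and 2 lower at 6 h. Without LPS, wild-type and knockout means were 6.57 and 9.66 for Fcgr1, and 9.06 and 6.92 for Marco, so the listed markers went both ways. The mean of the 13 listed markers of conventional dendritic cells was 8.45 to 9.16 on wild-type arrays and 8.24 to 8.86 on knockout arrays. Of these 13, 1 was called lower in knockout cells without LPS, 0 at 1 h, and 1 higher and 5 lower at 6 h, with median differences of −0.39, −0.31 and −0.38 log2 units. The mean of 4 of the 5 listed plasmacytoid dendritic cell markers was 6.22 to 6.59 on wild-type and 6.69 to 7.79 on knockout arrays, and 1, 1 and 2 of the 4 were called higher in knockout cells without LPS, at 1 h and at 6 h. Bst2 stood at 9.77 in wild-type and 12 in knockout cells without LPS, and Tcf4 at 6.69 and 9.12 at 6 h. Siglech (group means 4.47 to 4.62) and Ccr9 (4.23 to 4.83) were low in every group. Neutrophil markers (array means 5.09 to 5.65) had 1 of 9 called higher and 1 lower at 6 h, and stromal markers (5.41 to 6.03) 1 of 6 called higher. The neutrophil gene S100a8 was high in every group, at means of 10.81 to 11.64. Over all genes, knockout cells had 1.8% called higher and 0.642% lower without LPS, and 1.5% and 0.687% at 1 h. At 6 h the shares were 10.6% and 18.8%, and the neutrophil counts are near or below them. Some of the markers above differ between the genotypes beside the differences reported here, and their part in the results was not tested. Lists of B cells (array means 4.01 to 4.32), T and NK cells (3.70 to 4.18), mast cells (3.54 to 3.85) and erythroid cells (4.30 to 4.79) were low on every array. Of 3 measured erythroid markers, 1 was called higher in knockout cells at 6 h. In RNA from a whole culture, fewer cells of a type and less RNA per cell cannot be told apart.

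Myd88, the adaptor used by nearly all Toll-like receptors and the interleukin-1 receptor, was high in knockout cells at 6 h of LPS. Wild-type arrays 1, 2 and 3 read 8.85, 9.07 and 9.30 without LPS, 8.98, 9.37 and 9.37 at 1 h, and 9.22, 9.48 and 9.52 at 6 h. Knockout arrays read 9.30, 9.48 and 9.57 without LPS, 9.32, 9.52 and 9.59 at 1 h, and 10.31, 10.48 and 10.32 at 6 h. The 3 knockout arrays at 6 h thus stood apart from all 15 others, and the 5 other groups overlapped with their neighbours in order of mean. From the wild-type arrays at 6 h alone, the knockout arrays stood apart for 44.3% of all genes. At 6 h, the knockout mean of 10.37 ± 0.09 (SD, n = 3) was above the wild-type mean of 9.41 ± 0.16 by 0.96 ± 0.13 log2 units (SE, adjusted p = 6.3e-05), or 1.94-fold. A smaller absolute difference was measured for 93.6% of all genes. Without LPS the difference was 0.38 ± 0.13 (adjusted p = 0.2), and at 1 h it was 0.24 ± 0.13 (adjusted p = 0.57).

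Within knockout cells, Myd88 rose by 0.92 ± 0.13 log2 units from unstimulated to 6 h (SE, adjusted p = 7.6e-05), with 1.01, 0.99 and 0.75 for replicate numbers 1, 2 and 3. The change at 1 h was 0.03 ± 0.13, and from 1 h to 6 h Myd88 rose by 0.89 ± 0.13 (adjusted p = 0.00013). In wild-type cells the change at 6 h was 0.34 ± 0.13 (adjusted p = 0.17), and 0.012 with the replicate block within genotype. The difference between the genotypes' 6 h responses was 0.58 ± 0.19 (adjusted p = 0.066). That difference was called under 6 of the 11 other settings: with the replicate block within genotype (0.003), shared by both genotypes (0.0073) or random (0.011), with array weights (0.64, adjusted p = 0.024), with a filter on group means (0.047) and after centring on the 75th percentile (0.87, adjusted p = 0.012). It was also called without unstimulated wild-type array 1 (0.038) or wild-type array 1 at 1 h (0.049).

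Ticam1 and Ticam2, the adaptors of the TRIF arm, were not called between the genotypes at any time. Ticam1 read 8.23, 8.36 and 8.26 in unstimulated wild-type cells, 8.10, 8.14 and 8.14 at 1 h, and 8.07, 7.89 and 7.99 at 6 h. In knockout cells it read 8.04, 8.17 and 8.30, then 7.99, 8.14 and 8.03, then 7.90, 7.92 and 8.0. Arrays of the 2 genotypes overlapped at each time, and the 6 h difference was −0.04 ± 0.08 (adjusted p = 0.72). From unstimulated to 6 h, Ticam1 fell by 0.30 ± 0.08 log2 units in wild-type cells (adjusted p = 0.034) and by 0.23 ± 0.08 in knockout cells (adjusted p = 0.044). These are the smallest changes called among the members, and the 6 group means span 0.34 log2 units in all. The wild-type call was lost with only these groups (0.12), after median centring (0.06) and after centring on the 75th percentile (0.083). It was also lost without unstimulated array 2 (0.12) or 3 (0.062), and without 6 h array 2 (0.17) or 3 (0.097). The knockout call was lost without any of 12 of the 18 arrays, with adjusted p from 0.05 to 0.16: unstimulated knockout arrays 2 and 3, knockout arrays 1 and 3 at 1 h, all 3 knockout arrays at 6 h, unstimulated wild-type array 3, all 3 wild-type arrays at 1 h and wild-type array 3 at 6 h. That call was lost too with only these groups (0.17), after median centring (−0.19, 0.11), after a second quantile normalization (−0.03, 0.88) and with an intensity trend and robust moderation (0.062). After centring on the 75th percentile the knockout change turned to 0.04 (adjusted p = 0.74).

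Ticam2, the bridge between Ticam1 and Tlr4, varied more between the knockout replicates at 1 h and at 6 h than any other member. Its knockout arrays read 7.97, 8.02 and 7.95 without LPS, 7.77, 8.11 and 8.41 at 1 h, and 8.17, 8.29 and 8.97 at 6 h. Knockout array 3 was the highest at both LPS times, and the SD at 6 h was 0.43. Wild-type arrays read 8.24, 8.12 and 8.51, then 8.12, 8.29 and 8.36, then 8.26, 8.64 and 8.63. Between unstimulated genotypes, 14.6% of all genes had arrays fully apart. Ticam2 was among them, with the 3 knockout arrays below the 3 wild-type arrays, by −0.31 ± 0.19 (adjusted p = 0.57). At 6 h its difference was −0.04 ± 0.19, with a 95% interval of −0.44 to 0.36. The 6 h change in knockout cells was 0.49 ± 0.19 (adjusted p = 0.058; 0.01 with the replicate block within genotype), made of 0.19, 0.27 and 1.02 for numbers 1, 2 and 3. It was called after centring on the 75th percentile (0.76, adjusted p = 0.0086) or the median (0.53, 0.049), after a second quantile normalization (0.63, 0.021), with the block shared by both genotypes (0.012) or random (0.018) and with the filter on group means (0.045). Among single arrays left out, it was called without knockout array 1 at 6 h (0.64, adjusted p = 0.022) and without knockout array 1 or 3 at 1 h (0.045 and 0.046). From 1 h to 6 h the knockout change was 0.38 ± 0.19 (adjusted p = 0.14; 0.042 with the block; 0.61 and 0.027 after centring on the 75th percentile).

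The IRAK kinases went 3 different ways. Irak1, the kinase that is modified and degraded once the receptor complex forms, was lower in knockout cells at 6 h. Irak2, which sustains the later part of the response, was higher there, and Irak3 rose with LPS in both genotypes.

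Irak1 read 7.89, 8.19 and 8.07 on unstimulated wild-type arrays, 7.84, 8.06 and 8.06 at 1 h, and 8.07, 8.07 and 8.09 at 6 h. Knockout arrays read 7.82, 7.88 and 7.84, then 7.78, 7.84 and 7.65, then 7.40, 7.49 and 7.11. The knockout arrays at 6 h were the lowest 3 of all 18, and array 3 was the lowest of these. Between the genotypes at 6 h, 44.3% of all genes had arrays fully apart. At 6 h the knockout mean of 7.33 ± 0.20 (SD, n = 3) differed from the wild-type mean of 8.08 ± 0.01 by −0.75 ± 0.11 log2 units (SE, adjusted p = 6.4e-05). Centring on the 75th percentile left a difference of −0.50 (adjusted p = 0.001). The genotype difference was −0.20 ± 0.11 without LPS (adjusted p = 0.48) and −0.23 ± 0.11 at 1 h (adjusted p = 0.43).

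In wild-type cells Irak1 stood at 0.03 ± 0.11 between unstimulated and 6 h (adjusted p = 0.95). In knockout cells it fell by 0.52 ± 0.11 log2 units (SE, adjusted p = 0.0012), and the 3 replicate numbers gave −0.42, −0.40 and −0.73. Against 1 h the knockout change was −0.43 ± 0.11 (adjusted p = 0.0062; 0.053 with only these groups). Those 2 knockout changes shrank to −0.25 (adjusted p = 0.042) and −0.19 (0.1) after centring on the 75th percentile, and to −0.24 (0.067) and −0.19 (0.16) after a second quantile normalization.

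Irak2 read 9.08, 8.58 and 9.22 on unstimulated wild-type arrays, 9.09, 9.20 and 9.43 at 1 h, and 9.11, 9.09 and 9.36 at 6 h. Knockout arrays read 8.82, 8.83 and 9.05 without LPS, 9.25, 9.35 and 9.57 at 1 h, and 10.01, 9.87 and 10.08 at 6 h. The wild-type arrays overlapped across all 3 conditions, and the knockout arrays lay in 3 separate ranges in the order of LPS time. In knockout cells, 14.4% of all genes had arrays apart from unstimulated to 1 h and 41.2% from 1 h to 6 h. At 6 h the knockout mean of 9.98 ± 0.10 (SD, n = 3) was above the wild-type mean of 9.18 ± 0.15 by 0.80 ± 0.15 log2 units (SE, adjusted p = 0.00069), or 1.74-fold. Before LPS it stood at −0.06 ± 0.15 with a 95% interval of −0.37 to 0.26, and at 1 h at 0.16 ± 0.15 (adjusted p = 0.8).

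Knockout cells raised Irak2 by 1.09 ± 0.15 log2 units over 6 h (SE, adjusted p = 3.8e-05), or 2.12-fold, with 1.19, 1.04 and 1.03 for the 3 replicate numbers. Part of it was present at 1 h, at 0.50 ± 0.15 (adjusted p = 0.23; 0.026 with the replicate block within genotype), and 6 h lay above 1 h by 0.59 ± 0.15 (adjusted p = 0.0072). In wild-type cells the changes were 0.28 ± 0.15 at 1 h (adjusted p = 0.9) and 0.23 ± 0.15 at 6 h (adjusted p = 0.5). Unstimulated wild-type array 2, at 8.58, was the lowest Irak2 value of all, and its number gave the largest wild-type change at 6 h (0.51 against 0.03 and 0.14).

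Irak3, the inhibitory member of the family, had the widest span of group means among the members, at 1.42 log2 units, wider than the span of 93.8% of all genes. Wild-type arrays read 8.72, 8.18 and 8.53 without LPS, 8.96, 8.99 and 9.05 at 1 h, and 9.69, 10.07 and 9.93 at 6 h. Knockout arrays read 8.67, 8.64 and 8.78, then 8.99, 9.19 and 9.16, then 9.76, 9.84 and 10.06. The arrays separated by LPS time within each genotype, and the genotypes overlapped at each time. From unstimulated to 1 h, 11.1% of all genes separated in wild-type and 14.4% in knockout cells. From 1 h to 6 h, 27.1% and 41.2% did. By 6 h Irak3 had risen by 1.42 ± 0.13 log2 units in wild-type cells (SE, adjusted p = 4e-06), or 2.67-fold, and by 1.19 ± 0.13 in knockout cells (adjusted p = 3.7e-06). At 1 h the changes were 0.52 ± 0.13 (adjusted p = 0.18) and 0.42 ± 0.13 (adjusted p = 0.24), and from 1 h to 6 h Irak3 rose by 0.90 ± 0.13 in wild-type cells (adjusted p = 5e-04) and 0.77 ± 0.13 in knockout cells (adjusted p = 0.00032). The genotype difference at 6 h was −0.01 ± 0.13, with a 95% interval of −0.29 to 0.26, and only 3.2% of all genes had a smaller absolute difference.

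Traf6, the ubiquitin ligase that the IRAK kinases hand the signal to, followed LPS in both genotypes. Wild-type arrays read 7.51, 7.40 and 7.56 without LPS, 7.88, 7.78 and 7.80 at 1 h, and 8.18, 8.01 and 7.95 at 6 h. Knockout arrays read 7.55, 7.50 and 7.37, then 7.88, 8.10 and 8.03, then 8.11, 7.95 and 7.91. Every stimulated array lay above every unstimulated array of both genotypes. In wild-type cells, 11.1% of all genes had arrays apart from unstimulated at 1 h and 23.5% at 6 h. In knockout cells, 14.4% and 40.8% did. Traf6 rose by 0.56 ± 0.09 log2 units in wild-type cells at 6 h (SE, adjusted p = 0.00096) and by 0.52 ± 0.09 in knockout cells (adjusted p = 0.00043). At 1 h it had risen by 0.53 ± 0.09 in knockout cells (adjusted p = 0.0076) and stood at 0.33 ± 0.09 in wild-type cells (adjusted p = 0.3). The knockout call at 1 h was lost without knockout array 2 at 1 h (0.063), with only these groups (0.16) and without knockout array 3 of all conditions (0.14). The genotype difference was −0.01 ± 0.09 without LPS, 0.18 ± 0.09 at 1 h (adjusted p = 0.5) and −0.06 ± 0.09 at 6 h (95% interval −0.25 to 0.14).

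Map3k8 was the member with a called rise at 1 h in both genotypes. Wild-type arrays read 7.63, 8.10 and 7.87 without LPS, 8.59, 8.74 and 8.74 at 1 h, and 8.36, 8.43 and 8.49 at 6 h. Knockout arrays read 8.20, 8.34 and 8.05 without LPS, 9.12, 9.08 and 8.93 at 1 h, and 9.09, 9.06 and 9.16 at 6 h. Both genotypes stood higher at 1 h than before LPS, and the knockout arrays at 1 h and at 6 h overlapped. At 1 h Map3k8 rose by 0.82 ± 0.11 log2 units in wild-type cells (SE, adjusted p = 0.0015; 0.091 with only these groups) and by 0.84 ± 0.11 in knockout cells (adjusted p = 0.00048). At 6 h it was above unstimulated by 0.56 ± 0.11 (adjusted p = 0.0038) and by 0.90 ± 0.11 (adjusted p = 1.2e-05). From 1 h to 6 h the wild-type change was −0.26 ± 0.11 (adjusted p = 0.24) and the knockout change 0.06 ± 0.11 (adjusted p = 0.71; 0.29 and 0.047 after centring on the 75th percentile).

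Knockout cells had more Map3k8 signal than wild-type cells at 6 h, by 0.68 ± 0.11 log2 units (SE, 3 arrays a group, adjusted p = 0.00023), or 1.6-fold. All 3 knockout arrays lay above all 3 wild-type arrays at 1 h and at 6 h, and 2 of 3 did so without LPS. The genotypes' arrays stood fully apart, in either direction, for 19.6% of all genes at 1 h and 44.3% at 6 h. The Map3k8 difference was 0.34 ± 0.11 without LPS (adjusted p = 0.15; 0.046 without unstimulated wild-type array 2) and 0.36 ± 0.11 at 1 h (adjusted p = 0.13). The genotypes' 6 h responses differed by 0.34 ± 0.16 (adjusted p = 0.18; 0.63 and 0.021 after centring on the 75th percentile).

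Counts over the 8 measured genes set these results beside all genes, which were not matched to the members for signal. The members' group means were 7.33 to 10.37, and the median signal of all genes was 5.5. Without LPS, 0 members were called between the genotypes (2 at an unadjusted p under 0.05, Myd88 and Map3k8), and 1.8% of all genes were higher and 0.642% lower in knockout cells. At 1 h, 0 were called (2 unadjusted, Irak1 and Map3k8), beside 1.5% of genes higher and 0.687% lower. At 6 h, 3 of 8 were higher and 1 lower, beside 10.6% of all genes higher and 18.8% lower. Centring on the 75th percentile moved the median change of all genes by 0.24 and the split to 41% higher and 10.4% lower. The same 4 members were called under that centring, and Ticam1, Ticam2, Irak3 and Traf6, which were not called either way, turned from −0.06 to −0.01 as deposited to 0.19 to 0.23, still not called. The median difference of the 8 members at 6 h was −0.03, against 0.042 for all genes.

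**Figure D2:**
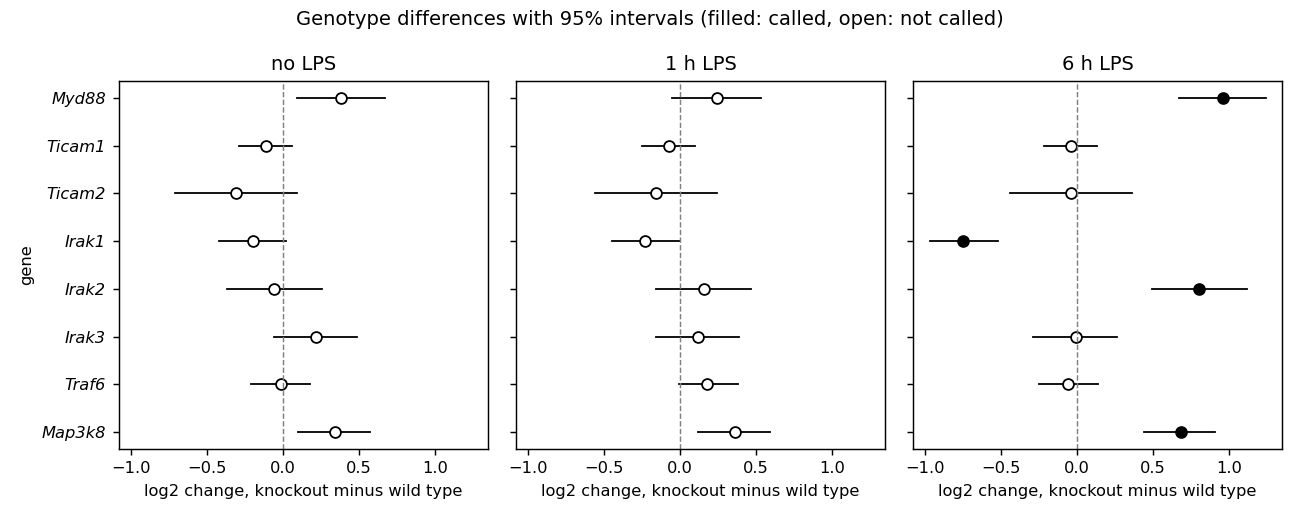
Knockout minus wild-type difference of the 8 measured genes in log2 units (horizontal axis), in unstimulated cells and at 1 h and 6 h of LPS, with 95% intervals from the fit of all 18 arrays; filled points have an adjusted p under 0.05. The filled points are all at 6 h: Myd88 (0.96), Irak2 (0.80), Map3k8 (0.68) and Irak1 (−0.75).

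The LPS responses of the members were read in the same way. At 1 h, 1 of 8 rose in wild-type cells (Map3k8), beside 0.256% of all genes higher and 0.0451% lower. In knockout cells 2 of 8 rose at 1 h (Map3k8 and Traf6; 3 with the replicate block within genotype), beside 0.537% higher and 0.13% lower. At 6 h, 3 rose and 1 fell in wild-type cells, beside 4.23% higher and 3.86% lower. In knockout cells 5 rose and 2 fell at 6 h, beside 12% higher and 20.2% lower (44.6% and 10.5% after centring on the 75th percentile). The members' median change at 6 h was 0.28 in wild-type and 0.71 in knockout cells, and that of all genes −0.008 and 0.027. From 1 h to 6 h, 1 of 8 rose in wild-type cells (Irak3), beside 3.04% higher and 2.87% lower. Over the same interval 3 rose and 1 fell in knockout cells, beside 12.2% higher and 17.1% lower (41% and 9.72% after that centring).

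**Figure D3:**
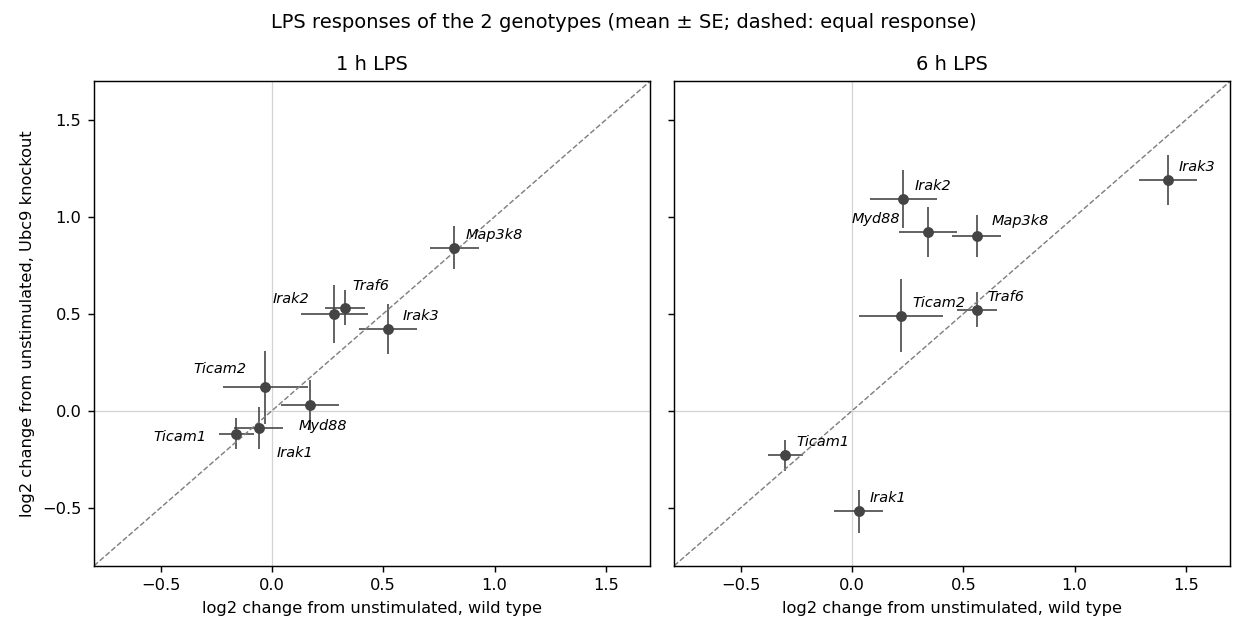
Change from unstimulated in log2 units in wild-type cells (horizontal axis) and knockout cells (vertical axis) at 1 h and 6 h of LPS, one point per gene with standard errors of both changes; the 2 genotypes share no array, and the dashed line marks equal responses. At 1 h no gene's responses were called different. At 6 h those of Irak2 (0.23 and 1.09, above the line) and Irak1 (0.03 and −0.52, below) were. Not called different were Myd88 (0.34 and 0.92), Map3k8 (0.56 and 0.90) and Ticam2 (0.22 and 0.49), above the line, and Irak3 (1.42 and 1.19), below. With the replicate block within genotype, Myd88 was called different (limma interaction, adjusted p = 0.003). Ticam1 and Traf6, not called either, lie near the line.

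Whether the genotypes responded differently to LPS was tested as an interaction. At 1 h, 0 of 8 members were called (0 at an unadjusted p under 0.05), and of all genes 0% were called higher and 0% lower in limma, with 592 genes at an unadjusted p under 0.05. At 6 h, 1 of 8 responded more strongly in knockout cells and 1 in the negative direction, beside 3% of all genes higher and 7.18% lower (14.2% and 2.95% after centring on the 75th percentile). Irak2 responded more strongly by 0.86 ± 0.21 log2 units (SE, 3 arrays a group, adjusted p = 0.016), with a 95% interval of 0.41 to 1.31. The Irak2 call held under all 11 other settings and without each array in turn, and also without knockout array 3 of all conditions, at adjusted p from 0.00096 to 0.044. Irak1 differed by −0.55 ± 0.15 (adjusted p = 0.029). This call was lost after median centring (−0.52, adjusted p = 0.064), centring on the 75th percentile (−0.26, 0.17), a second quantile normalization (−0.24, 0.29) and with only these groups (0.064). It was also lost without unstimulated wild-type array 1 (0.072), wild-type array 1, 2 or 3 at 6 h (0.055, 0.056 and 0.059), unstimulated knockout array 1 or 2 (0.053 and 0.067), or knockout array 3 at 6 h (0.066). The count of 2 was 3 under 6 of the 11 other settings, among them the replicate block within genotype, which added Myd88. The interactions of Irak3 (−0.23 ± 0.18, adjusted p = 0.47), Ticam2 (0.27 ± 0.27), Ticam1 (0.07 ± 0.12) and Traf6 (−0.04 ± 0.13, 95% interval −0.32 to 0.23) were not called. Centring on the 75th percentile turned those of Irak3 and Traf6 to 0.06 and 0.25 and moved those of Ticam2 and Ticam1 to 0.56 and 0.36, with adjusted p from 0.09 to 0.84.

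**Figure D4:**
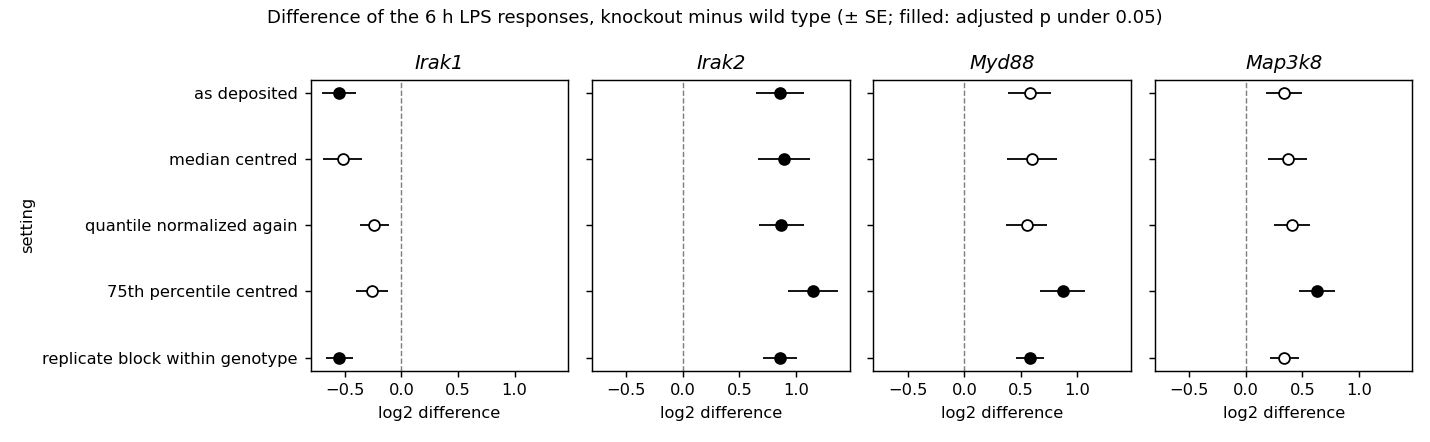
Difference between the genotypes' 6 h LPS responses (knockout minus wild type, log2 units, ± SE) for Irak1, Irak2, Myd88 and Map3k8 under 5 settings; filled points have an adjusted p under 0.05. Irak2 is filled in every setting shown (0.86 to 1.15), while Irak1 is filled as deposited and with the replicate block (−0.55 in both) and open in the others.

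Some members varied together over the 6 group means, which share the arrays' scaling and were few, so these correlations describe these groups only. Myd88 and Irak2 ran together (Pearson's r of 0.89 over 6 groups) and both ran against Irak1 (−0.94 and −0.86). The knockout group at 6 h was the highest for Myd88 and Irak2 and the lowest for Irak1. These values lean on that group, and correlations without it were not computed. Irak3 ran with Traf6 (0.86) and against Ticam1 (−0.95). For the 4 members whose group means spanned at least 1 log2 unit, the most similar genes were sought among 2425 genes of at least that span, and they are listed as the most alike of many, with no test. The group means most like those of Myd88 were of the exoribonuclease Xrn1 (0.998), the Rap1 activator Rapgef2 (0.998) and the interleukin-13 receptor subunit Il13ra1 (0.997). Xrn1 stood at 8.99 in knockout cells at 6 h and at 7.05 to 7.65 in the other groups. Most like Irak2 were the cytokine Csf2 (0.973), Ccng2 (0.962) and the transcriptional repressor Dr1 (0.959). The group means of Csf2 were 3.34 to 4.44, within the low range of signals. Most like Irak3 were the NF-kB subunit Relb (0.992), the mitochondrial superoxide dismutase Sod2 (0.99) and Ubxn2a (0.989). Most like Map3k8 were the transcription factor Junb (0.99), the chemokine Cxcl1 (0.985) and Rasgef1b (0.984). Junb read 7.50, 8.70 and 8.39 in wild-type and 7.88, 9.35 and 9.17 in knockout cells without LPS, at 1 h and at 6 h.

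The other genes of the pathway were taken from 6 lists with 76 genes, of which 67 were measured. At 6 h, 27 of the 67 were higher in knockout cells and 6 lower, beside 10.6% of all genes higher and 18.8% lower. The median difference was 0.25 log2 units. After centring on the 75th percentile, 40 were higher and 6 lower, beside 41% and 10.4% of all genes. Without LPS 9 were higher and 0 lower, beside 1.8% and 0.642% of all genes. The 9 became 2 with only these groups, 4 without unstimulated knockout array 2, and 6 without unstimulated knockout array 3. At 1 h 5 were higher and 0 lower, beside 1.5% and 0.687% of all genes. The 5 became 2 when array 2 of either genotype or knockout array 3 at 1 h was left out. They became 3 without wild-type array 1 at 1 h, and 8 without unstimulated knockout array 1 or 3. LPS for 6 h raised 21 and lowered 7 in wild-type cells, beside 4.23% and 3.86% of all genes. These counts were 12 and 5 without 6 h array 2, and 13 and 4 without 6 h array 3. In knockout cells LPS for 6 h raised 31 and lowered 8, beside 12% and 20.2% of all genes (44.6% and 10.5% after centring on the 75th percentile).

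**Figure D5:**
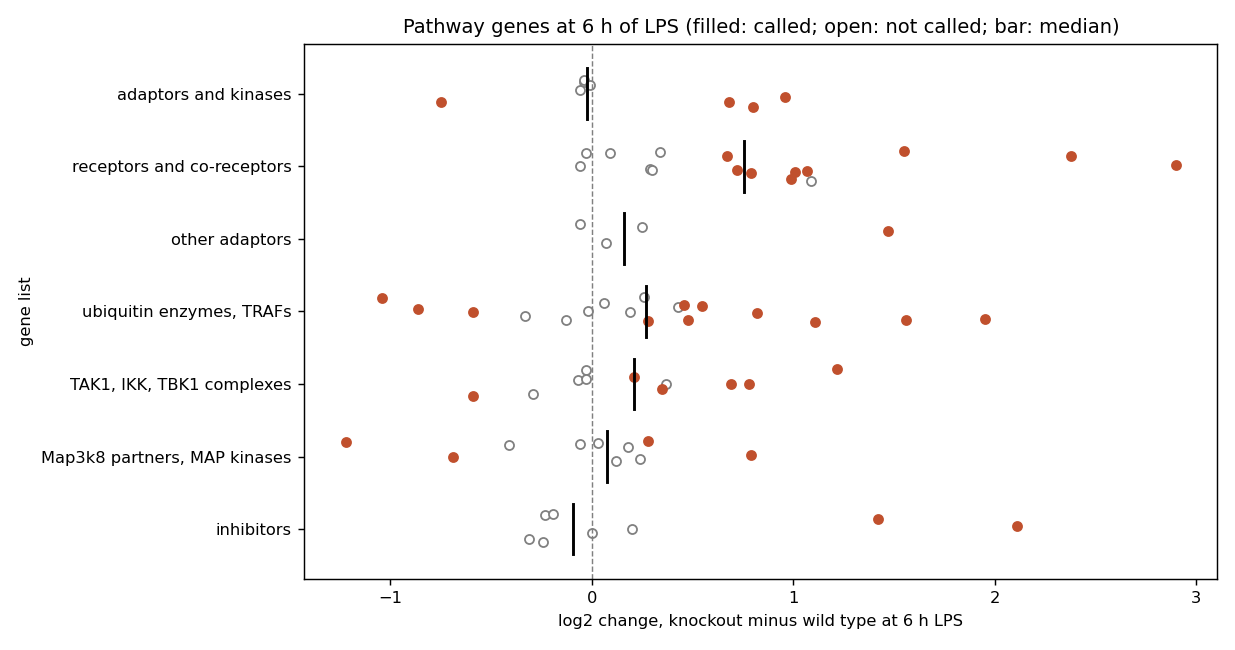
Knockout minus wild-type difference at 6 h of LPS in log2 units (horizontal axis) for the 8 adaptors and kinases and for 6 lists of other pathway genes, one point per gene; filled points have an adjusted p under 0.05, bars mark list medians, and the vertical scatter within a list carries no value. Receptors and co-receptors have the highest median (0.76), with Tlr3 at 2.90.

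Upstream of the adaptors, 9 of 16 receptors and co-receptors were higher in knockout cells at 6 h and 0 were lower. Of all genes, 10.6% were higher and 18.8% lower (41% and 10.4% after centring on the 75th percentile). Tlr3, a sensor of double-stranded RNA that signals through Ticam1 alone, was higher by 2.90 ± 0.24 log2 units (SE, 3 arrays a group, adjusted p = 3.5e-07). Ly86, the partner of the receptor-like protein Cd180, was higher by 2.38 ± 0.59, and the nucleic acid sensors Tlr9 and Tlr8 by 1.55 ± 0.33 and 1.07 ± 0.23. Without LPS, 2 of the 16 were higher, beside 1.8% of all genes higher and 0.642% lower. These 2 were the LPS co-receptor Cd14 by 1.28 ± 0.25 (adjusted p = 0.01) and Tlr4 by 0.46 ± 0.11 (adjusted p = 0.035). In wild-type cells, 6 h of LPS raised 5 and lowered 2, beside 4.23% of all genes higher and 3.86% lower. Cd14 changed by 2.07 ± 0.25, Tlr1 by 2.02 ± 0.53 and Ly96, the LPS-binding partner of Tlr4, by 0.98 ± 0.28. Of 4 further adaptors, 1 was higher at 6 h: Scimp, a membrane adaptor, by 1.47 ± 0.19 (adjusted p = 2.8e-05), and it was the 1 called without LPS as well (0.86 ± 0.19).

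Around Traf6, 8 of 18 ubiquitin enzymes and TRAF genes were higher in knockout cells at 6 h and 3 lower. Of all genes, 10.6% were higher and 18.8% lower at that time (41% and 10.4% after centring on the 75th percentile). The IRAK-binding ubiquitin ligase Peli1 was higher by 1.95 ± 0.12 log2 units (SE, 3 arrays a group, adjusted p = 1.6e-08) and already by 0.85 ± 0.12 without LPS (adjusted p = 0.00042). Its relative Peli2 stood at −1.04 ± 0.12 at 6 h (adjusted p = 1.1e-05). Rnf31, a subunit of the linear ubiquitin ligase, was higher by 1.56 ± 0.15, and the deubiquitinase Usp25 by 1.11 ± 0.13. Among 11 genes of the TAK1, IKK and TBK1 complexes, 5 were higher and 1 lower: the TBK1 adaptors Azi2 and Tank by 1.22 ± 0.14 and 0.78 ± 0.15, the kinase Ikbke by 0.69 ± 0.21, and Ikbkg, the regulatory IKK subunit, at −0.59 ± 0.11. Ikbkg was also called in the 6 h interaction, at −0.55 ± 0.15 (adjusted p = 0.031).

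Downstream of Map3k8, 2 of 10 partners and MAP kinases were higher at 6 h and 2 lower, with a median difference of 0.07 log2 units. Of all genes, 10.6% were higher and 18.8% lower (41% and 10.4% after centring on the 75th percentile). Map2k1, the MEK kinase that Map3k8 phosphorylates, was higher by 0.79 ± 0.12 log2 units (SE, 3 arrays a group, adjusted p = 0.00012). Mapk14, the p38 alpha kinase, stood at −1.22 ± 0.11 (adjusted p = 5.6e-07), and Map2k3, which activates p38, at −0.69 ± 0.10. Of 8 inhibitors, 2 were higher: Socs1, a suppressor of cytokine signalling, by 2.11 ± 0.22 and Nlrc5 by 1.42 ± 0.20. In the 6 h interaction, 8 of the 67 pathway genes were called higher and 5 lower, beside 3% and 7.18% of all genes. The counts were 15 and 8 with the replicate block within genotype, and 6 and 2 with only these groups. After centring on the 75th percentile they were 21 and 1, beside 14.2% and 2.95% of all genes. Without single arrays the counts ranged from 3 and 3, without unstimulated knockout array 2, to 7 and 7, without unstimulated wild-type array 3. The total also fell from 13 to 8 or fewer without knockout array 3 at 6 h (5 and 3) and without wild-type array 1 (5 and 3), 2 (4 and 2) or 3 (6 and 2) at 6 h. The largest was Tlr3 at 2.30 ± 0.34 (adjusted p = 0.00059), and Mapk14 was at −1.26 ± 0.15 (adjusted p = 0.00012).

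Known target genes of the 2 arms were read beside the adaptors. Of 10 MyD88-arm targets, 10 rose in each genotype at 6 h of LPS. Of all genes, 4.23% rose in wild-type and 12% in knockout cells (44.6% in knockout cells after centring on the 75th percentile). At that time 8 were higher in knockout cells and 0 lower, beside 10.6% and 18.8% of all genes (41% and 10.4% after that centring). Among the 8 were the cytokine Il6 by 3.01 ± 0.50 log2 units (SE, 3 arrays a group, adjusted p = 0.00027) and the chemokine Cxcl1 by 2.48 ± 0.34. Of 9 measured TRIF-arm targets, 7 were higher in knockout cells without LPS and 9 at 6 h, with 0 lower. Of all genes, 1.8% were higher without LPS and 10.6% at 6 h (41% at 6 h after centring on the 75th percentile). Ifnb1, the interferon beta gene, was higher by 7.35 ± 0.40 at 6 h (adjusted p = 1.1e-08) against a low wild-type mean of 4.48, which leaves the size uncertain. The antiviral gene Mx1 was higher by 3.89 ± 0.80 at 6 h. The median genotype difference of the 9 was 4.59 log2 units without LPS, 4.74 at 1 h and 2.76 at 6 h. In the 6 h interaction, 1 of the 9 was called higher, Ifnb1 at 5.54 ± 0.56, and 3 lower, with a median of −1.92. Those 3 were the antiviral genes Ifit3 (−3.94 ± 0.60, adjusted p = 8e-04), Ifit1 (−3.47 ± 0.64, adjusted p = 0.0027) and Ifit2 (−2.67 ± 0.73, adjusted p = 0.03). In that order, their unstimulated knockout means were already 11.14, 10.45 and 10.47, against 4.44, 4.61 and 4.86 in wild-type cells. Whether signalling through Ticam1 has a part in these levels was not tested. Both target lists were chosen with earlier results of these samples known, so their direction is not independent evidence.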

How the data were processed

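RNA from 18 samples was hybridised to Affymetrix Mouse Gene ST arrays, 200 ng of total RNA each, with 3 replicates in each of 6 groups that the series calls biological. The deposited table holds log2 signal values, made by the authors with RMA per the submitters' processing notes, with no version given. The log base is not given in the sources used here and was read from the range of the values (1.5 to 13.71). With arrays, the number of replicates limits the precision, and there are no detection calls.

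Of 35556 probe sets, 21789 had 1 gene symbol in the platform annotation, 1621 had several and 12146 were not listed. Of those with 1 symbol, 21698 were matched by gene identifier to the RefSeq gene table of GRCm38.p6, and 0 symbols changed. For 999 genes with several probe sets the one with the highest mean was kept, which left 19938 genes, and each of the 8 measured members had 1 probe set. Irak4 and Traf3 were not analysed here, and a check of the genotype labels is not reported here.

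The 6 group means were fitted together over all arrays (limma 3.58.1, R 4.3.3; 12 residual degrees of freedom, empirical Bayes variances). The fit gave 11 comparisons: the genotypes at each time, each genotype's 1 h, 6 h and 6 h minus 1 h responses, and the interactions at 1 h and 6 h. Tests were 2-sided with Benjamini-Hochberg adjustment over all genes, the threshold for a call was an adjusted p under 0.05, and errors of changes are standard errors. The fit was also run on simulated arrays with independent errors. Such arrays do not test it under the correlation by replicate number described below.

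All members are named, and at most 4 called genes per pathway list and comparison, the largest change first; a few named in 1 comparison are followed into others. Members and lists were chosen with earlier results of these data known.

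The replicate numbers come from the sample titles. Same-numbered arrays of a genotype, 18 pairs in all, correlated in their deviations from the group means (r of 0.15 to 0.80 across genes, which are not independent), so the numbers pair the arrays there. Across genotypes 13 of 27 pairs were over 0.1, and the numbers were not taken as pairs. The replicate block within genotype is therefore an alternative, printed where it changes a call. Other alternatives were a shared or random block, only the groups compared, array weights, 3 scalings, a filter on low signal (a group mean of at least 5, 12144 genes), the mean of all probe sets, an intensity trend with robust moderation, and leaving out each array in turn. Leaving out knockout array 3 in all conditions was chosen after the data were seen.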

Additional observations from a re-analysis of the deposited data

Results flagged for a closer look

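The 6 h LPS response of 2 members differed between the genotypes by a test of the difference itself. The response of Irak2 was greater in knockout than in wild-type cells by 0.86 log2 units, and that of Irak1 differed by −0.55 log2 units. The Irak2 call held under every alternative run. The Irak1 call was lost under 4 of 11 other settings and in 8 of 19 fits with arrays left out. Its difference was −0.26 after centring on the 75th percentile. Knockout arrays changed by 1.19, 1.04 and 1.03 for Irak2 and by −0.42, −0.40 and −0.73 for Irak1, and the wild-type arrays of the same numbers by 0.03, 0.51 and 0.14 and by 0.19, −0.12 and 0.02. Groups of 3 arrays were not searched for outlying arrays.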

How the results depend on the processing

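The direction of a called member change reversed once: Ticam1 in knockout cells at 6 h, at 0.04 after centring on the 75th percentile. The genotype differences of Myd88, Irak2, Map3k8 and Irak1 at 6 h and the 6 h rises of Irak3, Traf6 and Map3k8 kept their calls under every alternative run. Counts of called members moved as follows. Between unstimulated genotypes, 0 became 1 with the replicate block shared by both genotypes (Myd88) and 1 with array weights (Map3k8), and 0 to 1 without single arrays; at 1 h, 0 became 1 with array weights. For 1 h of LPS, the wild-type count of 1 became 0 with only these groups, and the knockout count of 2 became 1 with only these groups, 4 with array weights, 1 to 2 without single arrays and 1 without knockout array 3 of all conditions. From 1 h to 6 h in wild-type cells, 1 became 2 with array weights. For the 6 h interaction, 2 became 1 with only these groups, after median centring, after a second quantile normalization and without knockout array 3 of all conditions, and 1 to 3 without single arrays; it became 3 with each of the 3 replicate blocks, array weights, centring on the 75th percentile and the filter on group means. Over all single member results, 896 values under other settings and 1639 with arrays left out kept their side of the threshold, 17 and 27 lost a call, 30 and 6 gained one and 1 reversed. The replicate block within genotype called 5, 3 and 8 members for wild-type 6 h, knockout 1 h and knockout 6 h responses, 5 for knockout 6 h minus 1 h, and 3 for the 6 h interaction, and changed no other call. Over all genes, it called 3002 genes for the wild-type 6 h response against 1614, and only these groups gave 153 against 487 between unstimulated genotypes. Signal near the bottom of the range limits the size of changes such as that of Ifnb1.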
